A study of Mus musculus with 13 samples.

Results

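The genes described here are 8 imprinted genes that lie outside the large clusters of distal mouse chromosome 7 and that are expressed from the maternal allele or imprinted in some tissues or transcripts only. They are Grb10, Asb4, Gatm, Ddc, H13, Gnas, Trappc9 and Zim1. They were taken by name under a rule that uses no measured values, but the list was chosen with earlier results of these data known. All 8 of the 8 names were found among the 23366 genes of the count table, and all 8 were among the 16537 genes that passed the filter on low counts. The study sequenced RNA of primary skeletal muscle cells from hind limbs of mouse pups of postnatal day 2 to 3 and mixed strain, as dividing myoblasts or as myotubes after 24 hours in 1% horse serum. Cells were wild type or dICR/dICR, which lack on both alleles the imprinting control region of Igf2 and H19. There were 2 libraries of dICR/dICR myotubes, 5 of wild-type myotubes, 2 of dICR/dICR myoblasts and 4 of wild-type myoblasts. The labels do not say which pups or cultures gave which library, so p-values measure only the spread between these 13 samples, which may be technical.

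Imprinted genes are transcribed mainly from the copy inherited from one parent, because DNA methylation laid down in the egg or the sperm marks the copies differently. The H19 and Igf2 control region acts on its own neighbours on chromosome 7, whereas the 8 genes here lie in other domains. Grb10 encodes an adaptor that binds the insulin and insulin-like growth factor receptors and restrains growth signalling, and it is transcribed from the maternal copy in most tissues and from the paternal copy in brain. Gnas encodes the stimulatory G protein alpha subunit that couples receptors to adenylyl cyclase, in a locus with several imprinted transcripts. Asb4 encodes a suppressor-of-cytokine-signalling-box protein that gives a cullin ubiquitin ligase its substrate. H13 encodes signal peptide peptidase, a protease of the endoplasmic reticulum membrane, and Trappc9 encodes a subunit of a vesicle tethering complex. Gatm encodes the amidinotransferase of the first step of creatine synthesis, and Ddc encodes the decarboxylase that makes dopamine and serotonin, with a paternally expressed transcript in the embryonic heart. Zim1 encodes a zinc finger protein and lies beside the paternally expressed Peg3. A sum of counts per gene does not tell alleles or transcripts apart, so imprinting itself was not measured here.

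Start sites of Grb10, Gatm and Ddc, the 3 genes called in wild-type differentiation within the deep libraries as described further on, are shown with every CG dinucleotide, the site of DNA methylation, in capitals. The sequences are the 250 bases before an annotated start, 5′ to 3′ on the gene's strand, from RefSeq on GRCm38.p6, and were matched to the count table by symbol because the counts were made on mm9. Of the 8 genes, 7 matched, with 13 windows among 32851 windows of all genes. The Grb10 windows lie at chr11:12037421-12037670 and chr11:12027972-12028221, the Gatm window at chr2:122611278-122611527 and the Ddc window at chr11:11898145-11898394, all on the minus strand.
Grb10 first start: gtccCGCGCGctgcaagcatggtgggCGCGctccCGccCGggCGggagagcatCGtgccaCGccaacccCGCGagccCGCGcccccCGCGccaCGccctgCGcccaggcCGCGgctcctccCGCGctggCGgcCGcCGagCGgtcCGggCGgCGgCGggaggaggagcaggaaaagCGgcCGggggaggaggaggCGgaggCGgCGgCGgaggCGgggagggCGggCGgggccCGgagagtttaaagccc
Grb10 second start: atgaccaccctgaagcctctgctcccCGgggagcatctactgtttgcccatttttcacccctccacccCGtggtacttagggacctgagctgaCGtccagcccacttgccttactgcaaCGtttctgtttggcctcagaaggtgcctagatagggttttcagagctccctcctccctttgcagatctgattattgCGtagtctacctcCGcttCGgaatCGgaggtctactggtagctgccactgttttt
Gatm: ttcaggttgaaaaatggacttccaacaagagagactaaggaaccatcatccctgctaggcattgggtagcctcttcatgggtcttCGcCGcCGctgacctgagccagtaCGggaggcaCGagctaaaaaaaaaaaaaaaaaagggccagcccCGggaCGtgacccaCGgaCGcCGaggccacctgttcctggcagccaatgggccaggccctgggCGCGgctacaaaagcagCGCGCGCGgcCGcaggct
Ddc first start: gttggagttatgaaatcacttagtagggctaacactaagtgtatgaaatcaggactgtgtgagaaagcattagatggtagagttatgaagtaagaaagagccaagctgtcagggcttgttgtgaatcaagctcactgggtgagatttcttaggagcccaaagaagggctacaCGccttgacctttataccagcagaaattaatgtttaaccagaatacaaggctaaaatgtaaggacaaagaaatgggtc
The first Grb10 window holds 40 CG, and 1.31% of all windows hold at least as many. The second holds 8 CG, near the median of 6 over all windows. The Gatm window holds 17, a number that 23.5% of windows reach, and the first Ddc window holds 1. Grb10 thus has a CG-dense start and one near the median on the same strand, and the counts do not say which was in use. The letters CANNTG, the E-box that myogenic transcription factors can bind, read the same on both strands and occur at least once in 66.2% of windows. They occur once in the second Grb10 window and once in the Gatm window, and not in the first Grb10 window or in either Ddc window. The form CAGCTG, present in 13.0% of windows, one case of CANNTG, is in none of the 13.

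The libraries carry 2 facts that touch every comparison. H19, whose control region is deleted, had 52.4 to 71.5 CPM (counts scaled to a common library total) in the 4 dICR/dICR libraries and 2344 to 40490 CPM in the 9 wild-type ones, in the direction the genotype labels give. Total counts fell in a shallow set of 6 libraries with 5.31 to 10.91 M counts and a deep set of 7 libraries with 35.56 to 56.44 M counts. Small nucleolar RNA genes took 2.79 to 7.13% of counts in the shallow set and 0.0118 to 0.132% in the deep set. The labels name an Illumina and a SOLiD platform without saying which library was run on which. Both dICR/dICR myotube libraries are deep and both dICR/dICR myoblast libraries are shallow, whereas wild-type myotubes have 3 deep and 2 shallow libraries (numbers 4 and 5) and wild-type myoblasts 2 deep and 2 shallow ones (numbers 3 and 4). The Y-linked gene Ddx3y had 0.15 to 0.46 CPM in the 4 shallow wild-type libraries, against 14.5 to 176 CPM in the other 9, a split that follows the depth sets within wild type. All 5 myogenic lineage markers were detected in every library. Defining markers of macrophages summed to at most 5.6 CPM, of endothelium to at most 6.13 CPM and of adipocytes to at most 6.92 CPM. Those of fibroblasts summed to at most 84.5 CPM, in wild-type myotube 3. Those of smooth muscle and pericytes, which include Acta2, a gene also used by differentiating muscle, summed to 1020 to 2280 CPM in dICR/dICR myotubes, 2150 to 4400 in wild-type myotubes, 111 to 284 in dICR/dICR myoblasts and 82.4 to 395 in wild-type myoblasts.

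Compared per kilobase of exon, the median level over the 13 libraries was highest for Gnas at 111 CPM per kb, then Grb10 at 44.1, Gatm at 37.7 and H13 at 19.6 CPM per kb. Ddc at 8.45, Zim1 at 8.24 and Trappc9 at 6.36 CPM per kb lay close together, and Asb4 was lowest at 0.534 CPM per kb. The spread between libraries differed widely among the genes. The highest library exceeded the lowest 25.2-fold for Grb10, 17.6-fold for Asb4 and 17.4-fold for Gatm. For Zim1 the ratio was 7.9 and for Ddc 6.83. Gnas at 3.02, Trappc9 at 2.45 and H13 at 1.82 were the steadiest of the 8.

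**Figure D1:**
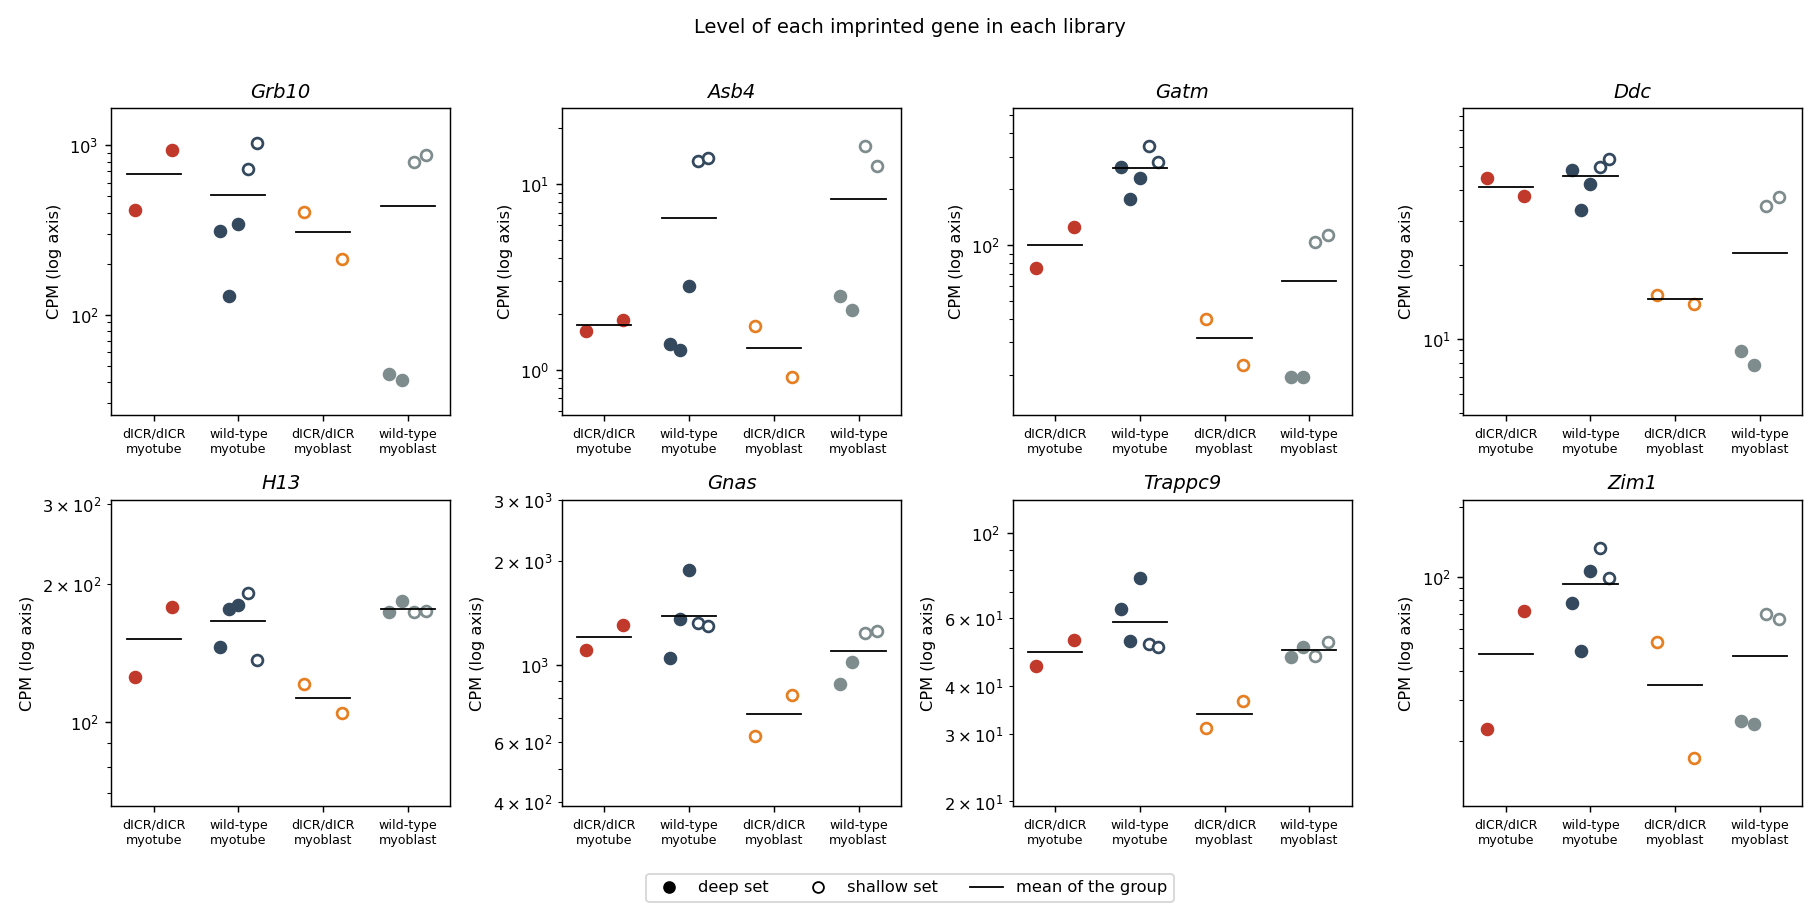
Level of each gene in CPM (log axis) in each library, by group. Filled points are deep libraries, open points are shallow ones and lines are group means. In wild-type myoblasts the open points of Grb10, Asb4, Gatm, Ddc, Gnas and Zim1 stand above the filled ones. Those of H13 and Trappc9 overlap the filled ones.

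Among the signalling genes, Grb10 had 416 and 938 CPM in dICR/dICR myotubes, against 313, 128, 343, 724 and 1029.9 CPM in wild-type myotubes. It had 401 and 214 CPM in dICR/dICR myoblasts, against 44.6, 40.9, 791 and 873 CPM in wild-type myoblasts. The dICR/dICR values lie inside the wild-type range in both cell types, and the widest gap is between the 2 deep and the 2 shallow wild-type myoblast libraries. Gnas had 1109 and 1309.7 CPM in dICR/dICR myotubes, against 1051, 1363, 1885, 1328 and 1297 CPM in wild-type myotubes. In myoblasts it had 624 and 820.1 CPM in dICR/dICR cells, against 883, 1018, 1241 and 1257 CPM in wild-type cells. Both dICR/dICR myoblast values of Gnas are below all 4 wild-type ones, while the myotube groups overlap. Here and below, how many of all genes have groups that do not overlap was not counted.

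Asb4, the ligase adaptor, had 1.62 and 1.85 CPM in dICR/dICR myotubes, against 1.37, 1.27, 2.84, 13.4 and 13.8 CPM in wild-type myotubes. Its myoblast levels were 1.72 and 0.91 CPM in dICR/dICR cells, against 2.50, 2.10, 16.0 and 12.6 CPM in wild-type cells. All 4 shallow wild-type libraries are high and all other libraries are low, the shallow dICR/dICR myoblasts included. These levels rest on few reads, with 22 and 7 counts in dICR/dICR myoblasts against 134, 108, 130 and 82 counts in wild-type myoblasts. H13, the signal peptide peptidase, had 126 and 178 CPM in dICR/dICR myotubes, against 146, 177, 179.9, 191 and 137 CPM in wild-type myotubes. In myoblasts H13 had 121 and 105 CPM in dICR/dICR cells, against 174, 184, 174 and 175 CPM in wild-type cells. The 4 wild-type myoblast values lie close together whatever the depth, and both dICR/dICR values are below them. Trappc9, the tethering complex subunit, had 45.0 and 52.6 CPM in dICR/dICR myotubes, against 63.1, 52.2, 76.2, 51.4 and 50.5 CPM in wild-type myotubes. Trappc9 had 31.1 and 36.5 CPM in dICR/dICR myoblasts, against 47.5, 50.4, 47.7 and 52.1 CPM in wild-type myoblasts. Again the myoblast groups do not overlap and the myotube groups do.

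Gatm, the creatine synthesis enzyme, had 75.6 and 125 CPM in dICR/dICR myotubes, against 265, 178, 229, 341 and 282 CPM in wild-type myotubes. It had 40.3 and 22.7 CPM in dICR/dICR myoblasts, against 19.6, 19.5, 104 and 113 CPM in wild-type myoblasts. Both dICR/dICR myotube values of Gatm are below every wild-type myotube value. In myoblasts its dICR/dICR values lie between the deep and the shallow wild-type ones. Ddc, the decarboxylase, had 44.9 and 37.8 CPM in dICR/dICR myotubes, against 48.6, 33.4, 42.5, 49.9 and 53.8 CPM in wild-type myotubes. In myoblasts Ddc had 15.1 and 13.8 CPM in dICR/dICR cells, against 8.91, 7.87, 34.5 and 37.7 CPM in wild-type cells. The myotube groups of Ddc overlap, and its myoblast values have the same order as those of Gatm. Zim1, the zinc finger gene, had 22.6 and 71.8 CPM in dICR/dICR myotubes, against 77.8, 48.5, 106, 134 and 99.8 CPM in wild-type myotubes. For Zim1 in myoblasts the levels were 52.8 and 16.9 CPM in dICR/dICR cells, against 24.5, 23.6, 69.5 and 66.6 CPM in wild-type cells. In each cell type, 1 dICR/dICR value of Zim1 lies inside the wild-type range and the other below it.

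In myotubes, Gatm differed most clearly, at 100 ± 34.8 CPM in dICR/dICR cells and 259 ± 60.8 CPM in wild-type cells (SD, n = 2 and 5), and the difference did not pass the test. Over all libraries 0 of the 8 genes were called in edgeR's quasi-likelihood test with Benjamini-Hochberg adjustment over 16537 genes, where a call is an adjusted p under 0.05. Gatm was the 1 of the 8 whose groups did not overlap, and the share of all genes without overlap was not counted. The share of all genes called in this comparison was 0.556%, and 2773 genes had an unadjusted p under 0.05. Gatm had a log2 fold change (dICR/dICR over wild type) of −1.37 ± 0.68 (SE, adjusted p = 0.329). Asb4 had −1.87 ± 1.14 (adjusted p = 0.419) and Zim1 −0.98 ± 0.63 (adjusted p = 0.443). Grb10 lay on the other side of 0 at 0.42 ± 1.07 (adjusted p = 0.866). For Ddc, H13, Gnas and Trappc9 the log2 fold changes were −0.14, −0.13, −0.20 and −0.27, with standard errors of 0.21 to 0.53.

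The dICR/dICR myotubes are all deep, so the comparison was also made in the deep set alone. None of the 8 was called there either, beside 0.709% of all genes, or with the depth set as a term. Against the 3 deep wild-type myotube libraries, Gatm had a log2 fold change of −1.17 ± 0.28 (adjusted p = 0.117), and that of Asb4 was −0.09 ± 0.46. Grb10 moved to 1.36 ± 0.47 (adjusted p = 0.207), with 416 and 938 CPM in dICR/dICR cells against 313, 128 and 343 CPM in deep wild-type cells, groups that do not overlap. Gatm neared the threshold in 1 model of all libraries, added after seeing the data, with a mean for each group and depth set. There it had −1.16 ± 0.29 (adjusted p = 0.0502), where 3.63% of all genes were called. Over all libraries, a term for depth gave Gatm −0.86 ± 0.45 (adjusted p = 0.326). Blocking by replicate number gave −0.66 ± 0.57 (adjusted p = 0.716). In the deep set without wild-type myotube 2 it passed at −1.33 (adjusted p = 0.0314). It did not pass without wild-type myotube 1 (−1.06, adjusted p = 0.165) or 3 (−1.16, adjusted p = 0.239). Leaving out dICR/dICR myotube 1 gave −0.85, and leaving out dICR/dICR myotube 2 gave −1.58. Summed CPM of 6 myotube markers were 15300 and 34600 in the dICR/dICR myotubes, against 51700, 42700 and 95500 in the deep wild-type myotubes, so the libraries low in Gatm are also low in these markers. The part of the markers in the Gatm difference was not tested. In bulk RNA, fewer differentiated cells and less RNA per cell cannot be told apart.

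In myoblasts over all libraries, 0 of the 8 genes were called, where 0.0302% of all genes were and 2009 had an unadjusted p under 0.05. Gnas, H13, Trappc9 and Asb4 were each lower in both dICR/dICR libraries than in all 4 wild-type ones. How many of all genes separate in this way was not counted, so the separation is not read as a trait of these genes. H13 averaged 113 ± 11.4 CPM in dICR/dICR myoblasts and 177 ± 4.80 CPM in wild-type myoblasts (SD, n = 2 and 4), a log2 fold change of −0.65 ± 0.22 (unadjusted p = 0.0138, adjusted p = 0.30). Trappc9 had −0.55 ± 0.22 (unadjusted p = 0.0254, adjusted p = 0.352) and Gnas −0.61 ± 0.30 (adjusted p = 0.433). Asb4 had −2.61 ± 1.25 (adjusted p = 0.427). The changes of Gatm, Ddc, Grb10 and Zim1 were −1.02, −0.61, −0.51 and −0.39, with standard errors of 0.57 to 1.15.

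Within the shallow set, which holds both dICR/dICR myoblast libraries and wild-type myoblasts 3 and 4, 5 of the 8 genes were called, all lower in dICR/dICR cells. In this fit 21.6% of all genes were called and 10.3% were called lower, so calls were common. Wild-type myoblasts 3 and 4 were the closest pair of replicates in the series, at a chi-square per degree of freedom of 4.7 between their counts. The spread between them may therefore be smaller than that between separate cultures. The log2 fold change was −3.35 ± 0.36 for Asb4 (adjusted p = 0.00268), −1.76 ± 0.26 for Gatm (adjusted p = 0.00575) and −1.30 ± 0.18 for Ddc (adjusted p = 0.00521). It was −1.42 ± 0.32 for Grb10 (adjusted p = 0.0196) and −0.77 ± 0.22 for Gnas (adjusted p = 0.0457). H13 at −0.61 ± 0.19 (adjusted p = 0.0616), Trappc9 at −0.54 ± 0.18 (adjusted p = 0.0679) and Zim1 at −0.94 ± 0.43 (adjusted p = 0.159) did not pass. Asb4 stayed called with each of the 6 shallow libraries left out in turn. Without wild-type myoblast 3, adjusted p was 0.0565 for Gatm, 0.0613 for Ddc and 0.108 for Grb10, and without wild-type myoblast 4 it was 0.0712, 0.0813 and 0.144 for the same genes. Gnas stayed called only without dICR/dICR myoblast 2, and Zim1 passed without dICR/dICR myoblast 1, at −1.97 (adjusted p = 0.00442). H13 passed without wild-type myotube 4 (adjusted p = 0.034) or 5 (adjusted p = 0.0339).

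The same contrast in the model of all libraries with a mean for each group and depth set called 3 of the 8, beside 5.25% of all genes: Asb4 (−3.40 ± 0.50, adjusted p = 0.00585), Gatm (−1.78 ± 0.32, adjusted p = 0.0121) and Ddc (−1.32 ± 0.24, adjusted p = 0.0122). With the depth set as a term, Asb4 alone was called (−3.48 ± 0.48, adjusted p = 0.00802), where 2.01% of all genes were. The shallow wild-type myoblasts carried more myotube marker RNA than the dICR/dICR ones: the 6 markers summed to 8690 and 3270 CPM in dICR/dICR myoblasts, against 16800 and 20500 CPM in wild-type myoblasts 3 and 4. Schwann cell and nerve markers summed to 3.59 and 6.38 CPM in dICR/dICR myoblasts, against 18 and 15 CPM in those same wild-type libraries. Ddx3y had 14.5 and 63.1 CPM in dICR/dICR myoblasts, against 0.25 and 0.15 CPM in them. The part of these differences in the lower Asb4, Gatm, Ddc and Grb10 was not tested.

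**Figure D2:**
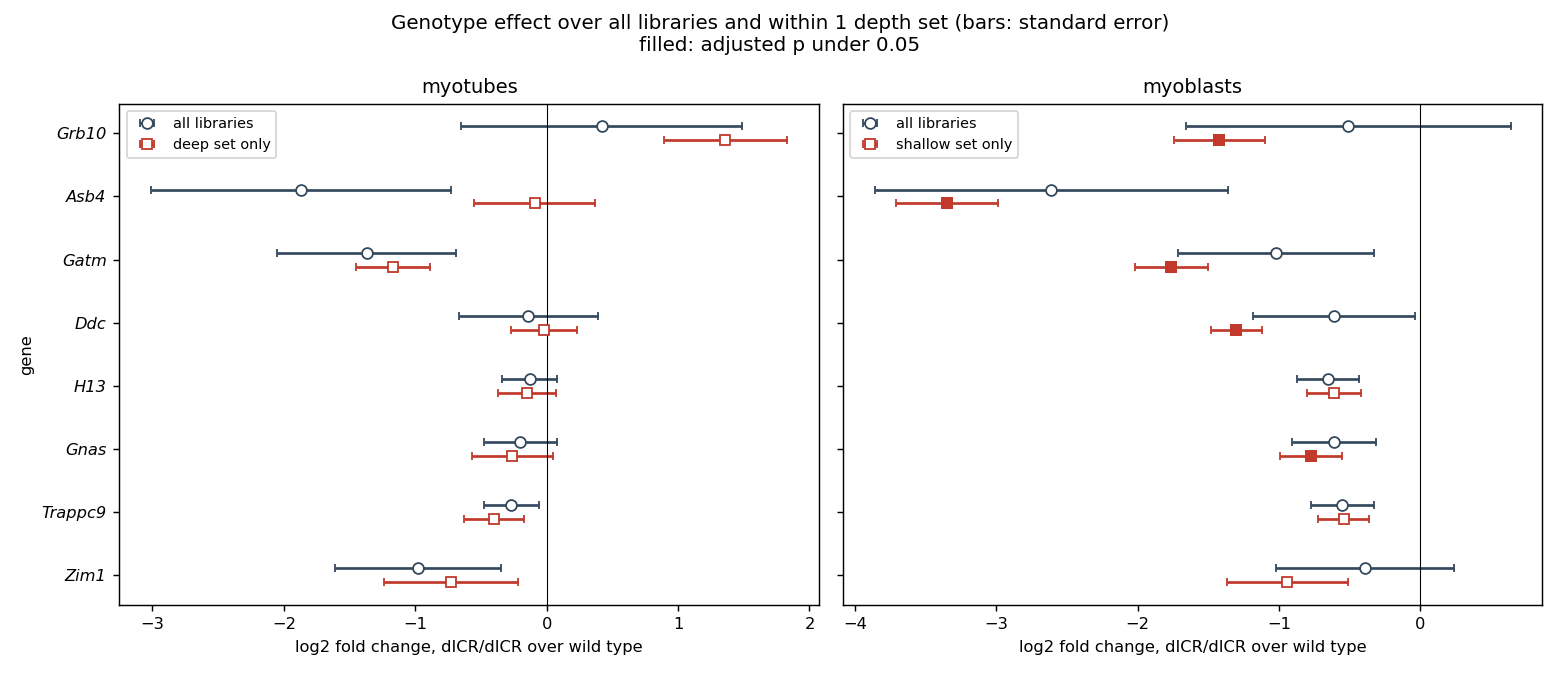
Log2 fold change of dICR/dICR over wild type with its standard error, in myotubes (left) and myoblasts (right), over all libraries (circles) and within the depth set that holds the dICR/dICR libraries (squares). Filled symbols mark an adjusted p under 0.05; they occur for Grb10, Asb4, Gatm, Ddc and Gnas in the shallow myoblasts, all below 0.

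In wild-type cells, Gatm rose with differentiation, to 259 ± 60.8 CPM in myotubes, against 64.1 ± 51.6 CPM in myoblasts (SD, n = 5 and 4). Its log2 fold change (myotubes over myoblasts) was 2.02 ± 0.54 (adjusted p = 0.0227), and no wild-type myotube library overlapped a wild-type myoblast library. Gatm was the 1 of the 8 genes called, in a comparison that called 19.1% of all genes and 8.86% of them as higher. The call needs both deep wild-type myoblast libraries, since adjusted p was 0.0532 without wild-type myoblast 1 and 0.0544 without wild-type myoblast 2. Ddc had 1.05 ± 0.43 (adjusted p = 0.112) and Zim1 1.02 ± 0.49 (adjusted p = 0.169). For Gnas the value was 0.33 ± 0.23, for Trappc9 0.25 ± 0.16, for Grb10 0.21 ± 0.88, for H13 −0.09 ± 0.17 and for Asb4 −0.36 ± 0.83, with adjusted p of 0.316 or more.

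The size of these changes differed between the depth sets. In the deep set alone, Gatm was higher in myotubes by 3.54 ± 0.32 (adjusted p = 0.00149), Grb10 by 2.64 ± 0.53 (adjusted p = 0.0142) and Ddc by 2.33 ± 0.27 (adjusted p = 0.00269), beside 22.2% of all genes called and 11.6% called higher. Zim1 had 1.72 ± 0.53 (adjusted p = 0.0542), and it passed without wild-type myotube 2 (adjusted p = 0.0221), dICR/dICR myotube 1 (adjusted p = 0.028) or dICR/dICR myotube 2 (adjusted p = 0.0292). It was called in the deep contrast of the model with a mean for each group and depth set (1.69, adjusted p = 0.0347). With the depth set as a term, where 31.8% of all genes were called, 3 of the 8 were, Gatm (2.58, adjusted p = 0.000587), Ddc (1.48, adjusted p = 0.00424) and Zim1 (1.27, adjusted p = 0.0304). The Gatm call held with each of the 7 deep libraries left out. Grb10 lost it without wild-type myoblast 1 (adjusted p = 0.117) or 2 (adjusted p = 0.135), and Ddc without wild-type myoblast 2 (adjusted p = 0.0594). In the shallow set alone, Gatm was higher by 1.54 ± 0.26 (adjusted p = 0.00551), beside 22.6% of all genes called and 11.2% called higher. There Ddc had 0.54 ± 0.18 (adjusted p = 0.0664), Zim1 0.80 ± 0.43 (adjusted p = 0.214) and Grb10 0.10 ± 0.31 (adjusted p = 0.853). The Gatm call was lost without wild-type myoblast 3 (adjusted p = 0.0824) or 4 (adjusted p = 0.0605). Without dICR/dICR myoblast 1, Ddc (adjusted p = 0.0427) and Zim1 (adjusted p = 0.0195) passed. Both also passed without dICR/dICR myoblast 2, at adjusted p of 0.0434 for Ddc and 0.0182 for Zim1. A test of the difference between the sets called Ddc, whose differentiation change was larger in the deep set by 1.78 ± 0.32 (adjusted p = 0.0442), where 0.435% of all genes were called. For Gatm that difference was 2.00 ± 0.42 (adjusted p = 0.0735) and for Grb10 2.54 ± 0.67 (adjusted p = 0.136).

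In dICR/dICR cells, Gatm averaged 100 ± 34.8 CPM in myotubes and 31.5 ± 12.5 CPM in myoblasts (SD, n = 2 each), and Ddc 41.4 ± 4.99 CPM in myotubes and 14.4 ± 0.899 CPM in myoblasts. Over all libraries 0 of the 8 genes were called, beside 0.145% of all genes, with 3172 at an unadjusted p under 0.05. Gatm had 1.67 ± 0.78 (adjusted p = 0.264), Ddc 1.52 ± 0.65 (adjusted p = 0.238) and Grb10 1.14 ± 1.32 (adjusted p = 0.660). The other 5 had 0.37 for Asb4, 0.43 for H13, 0.43 for Zim1, 0.53 for Trappc9 and 0.74 for Gnas. With the depth set as a term, 4 were called, beside 7.63% of all genes called and 4.80% called higher: Grb10 (4.08 ± 0.91, adjusted p = 0.0202), Asb4 (3.14 ± 0.56, adjusted p = 0.00819), Gatm (3.07 ± 0.65, adjusted p = 0.0161) and Ddc (2.66 ± 0.54, adjusted p = 0.0141). That term takes the shift between sets from wild-type cells only, and in dICR/dICR cells differentiation and depth set cannot be told apart. The difference between the dICR/dICR and the wild-type differentiation changes was called for 0 of the 8 genes and 0 of 16537 genes, with 1643 at an unadjusted p under 0.05. DESeq2 called 72 genes for that difference and limma voom 0. In edgeR over all libraries the estimated differences ran between −0.59 for Zim1 and 0.93 for Grb10, and that of Gatm was −0.35. They were 0.28 for Trappc9, 0.41 for Gnas, 0.47 for Ddc, 0.52 for H13 and 0.74 for Asb4. With the depth set as a term, 16 genes (0.0968%) and 0 of the 8 were called for the difference, and its values were larger: 3.35 ± 0.62 for Asb4 (adjusted p = 0.0718), 2.66 ± 0.89 for Grb10 (adjusted p = 0.337) and 1.18 ± 0.56 for Ddc (adjusted p = 0.483).

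**Figure D3:**
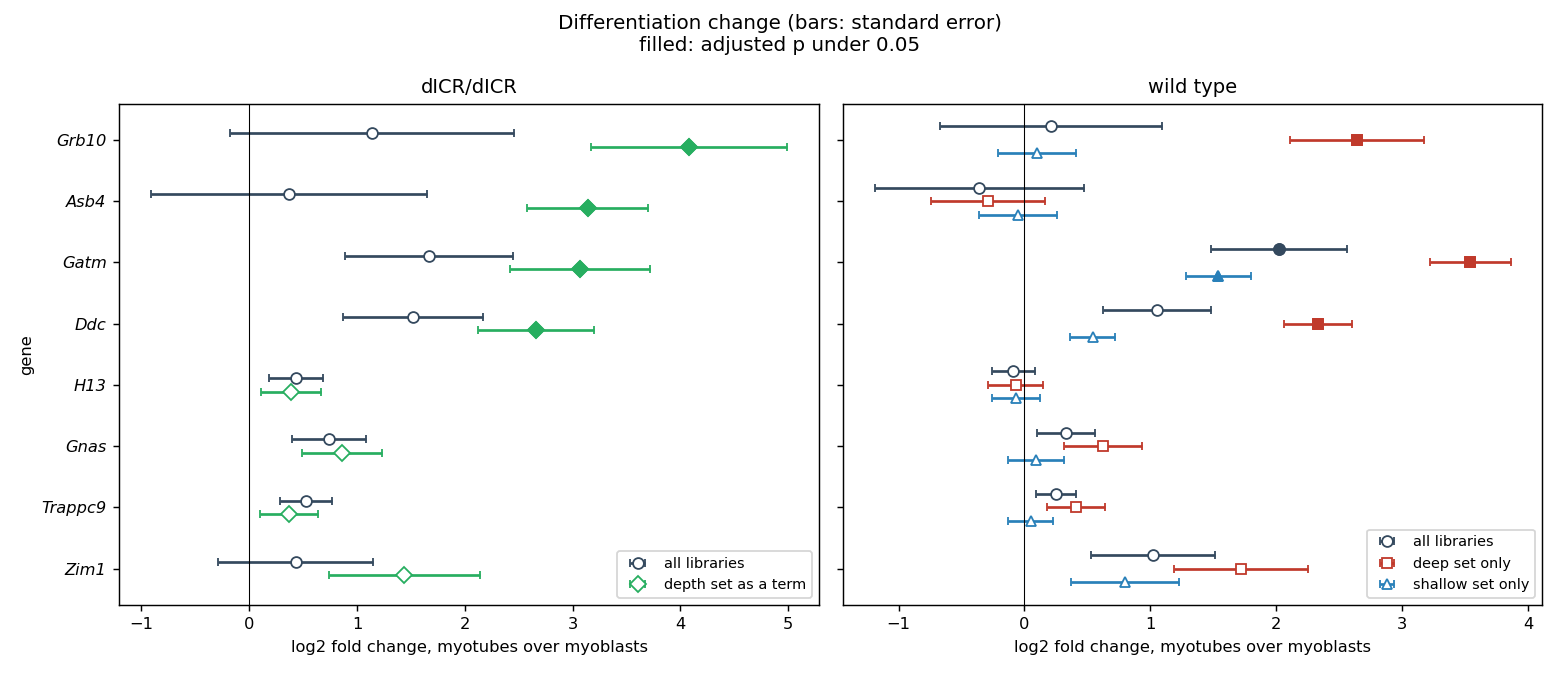
Log2 fold change of myotubes over myoblasts with its standard error, in dICR/dICR cells (left, over all libraries and with a term for the depth set) and in wild-type cells (right, over all libraries and within each depth set). Filled symbols mark an adjusted p under 0.05; in wild type Gatm is filled in all 3 fits, Grb10 and Ddc in the deep set alone.

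Libraries of the same wild-type group but different depth set were compared in the model with a mean for each group and depth set. In wild-type myoblasts, 4 of the 8 genes were called higher in the shallow than in the deep libraries, in a comparison that called 22.1% of all genes. Grb10 was higher 19.5-fold (log2 4.28 ± 0.55, adjusted p = 0.000224), Asb4 6.21-fold (2.64 ± 0.46, adjusted p = 0.00201), Gatm 5.55-fold (2.47 ± 0.32, adjusted p = 0.000274) and Ddc 4.3-fold (2.10 ± 0.24, adjusted p = 8.29e-05). In wild-type myotubes, 2 of the 8 were called, beside 13.3% of all genes: Asb4 was higher 7.4-fold (2.89 ± 0.40, adjusted p = 0.000481) and Grb10 3.36-fold (1.75 ± 0.43, adjusted p = 0.0202). H13 had −0.04 in myoblasts and −0.03 in myotubes, and Trappc9 0.03 and −0.33, none of them called. The shallow wild-type myoblasts also had more myotube marker RNA, 16800 and 20500 CPM, against 4380 and 3340 CPM in the deep ones. In wild-type myotubes the marker sums of the sets overlap, at 41500 and 58600 CPM in shallow libraries and 51700, 42700 and 95500 CPM in deep libraries, while Asb4 and Grb10 do not overlap. The part of depth, small nucleolar RNA, Ddx3y and the markers, which differ between the sets as given above, was not tested.

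**Figure D4:**
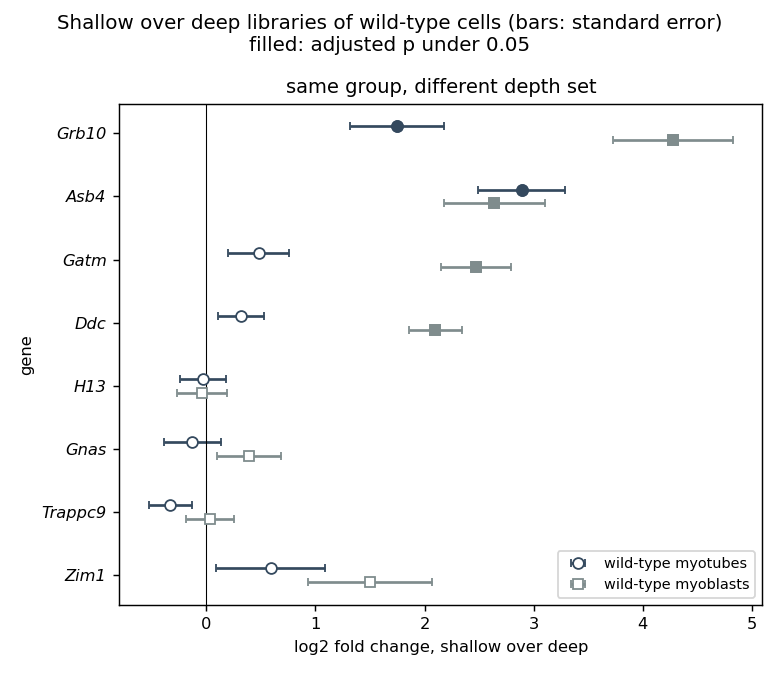
Log2 fold change of shallow over deep wild-type libraries with its standard error, in myotubes (circles) and myoblasts (squares). Filled symbols mark an adjusted p under 0.05; Grb10 and Asb4 are filled in both cell types, Gatm and Ddc in myoblasts, and H13 and Trappc9 lie near 0.

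The levels of Gatm and Grb10 were set beside the 6 myotube markers of the same library. The 2 deep wild-type myoblast libraries and dICR/dICR myoblast 2, with 3270 to 4380 CPM of markers, had 19.5 to 22.7 CPM of Gatm. The dICR/dICR myotubes, with 15300 and 34600 CPM of markers, had 75.6 and 125 CPM of Gatm, next to the 104 and 113 CPM of the shallow wild-type myoblasts with 16800 and 20500 CPM of markers. The 5 wild-type myotubes, with 41500 to 95500 CPM of markers, had 178 to 341 CPM of Gatm, above the other 8 libraries. Within that group the order of Gatm differs from that of the markers. Wild-type myotube 4, a shallow library, has the lowest marker sum and the highest Gatm. Wild-type myotube 3, a deep library, has the highest sum, 95500 CPM, with 229 CPM of Gatm. For Grb10, deep wild-type myotubes with 42700 to 95500 CPM of markers had 128 to 343 CPM, below the 791 and 873 CPM of the shallow wild-type myoblasts. These contrasts set deep against shallow libraries, and the part of the markers and of the depth set in the levels was not tested.

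**Figure D5:**
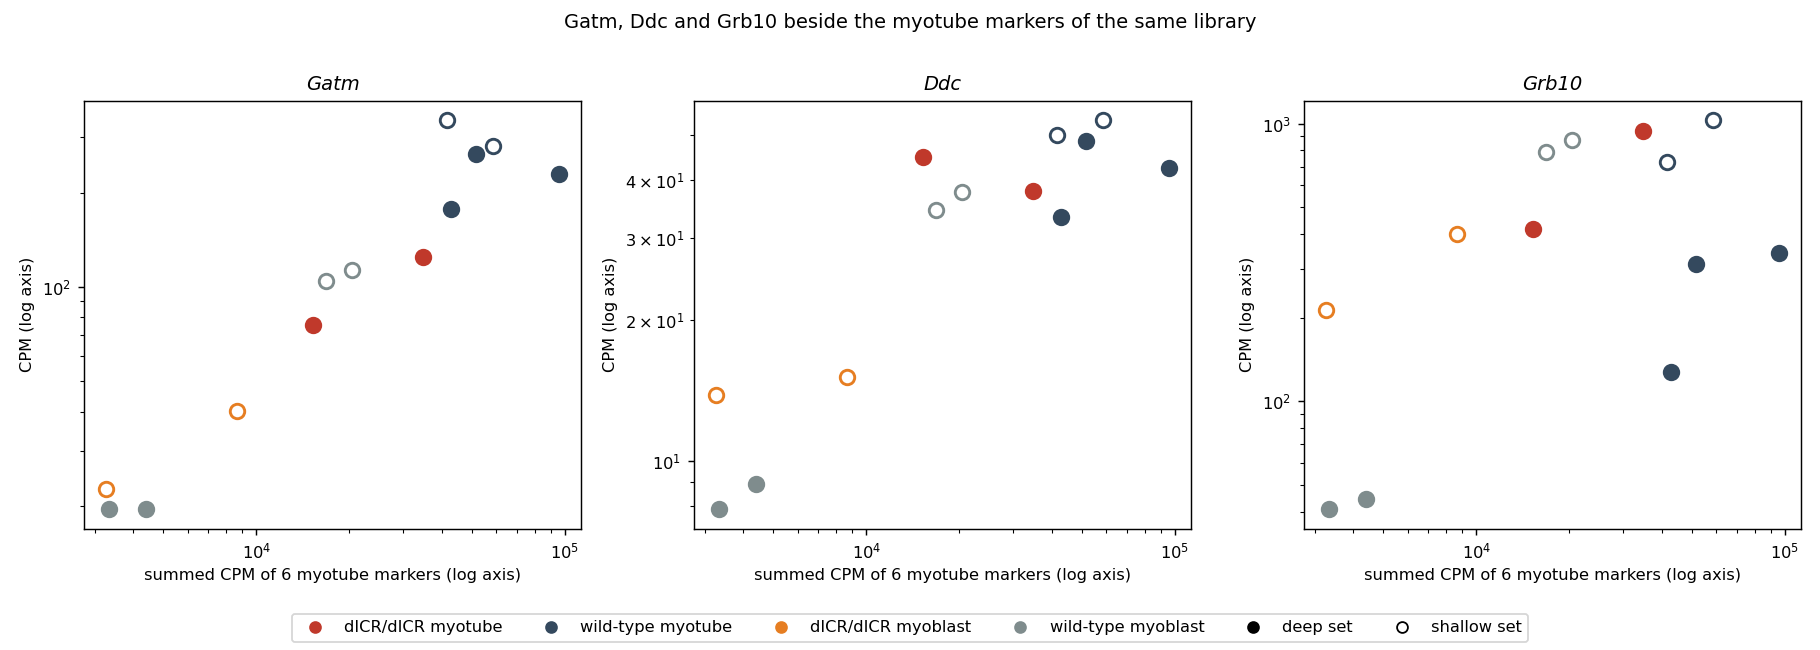
Level of Gatm, Ddc and Grb10 in CPM against the summed CPM of 6 myotube markers in the same library (log axes); colours are groups, filled points deep and open points shallow libraries. Gatm is highest in the wild-type myotubes (178 to 341 CPM), which also have the highest marker sums, though among them the order of Gatm and of the sums differs. For Grb10 the deep wild-type myotubes (128 to 343 CPM) lie below the shallow wild-type myoblasts (791 and 873 CPM).

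Several of the 8 genes overlap another imprinted transcript, and without the strand setting of the counting their reads cannot be fully separated. Nespas, the antisense RNA of the Gnas locus, had 0.598 to 1.09 counts per 100 Gnas counts in dICR/dICR myotubes, 0.863 to 1.4 in wild-type myotubes, 0.635 to 1.68 in dICR/dICR myoblasts and 0.326 to 0.975 in wild-type myoblasts. Mcts2, a paternally expressed retrogene in an H13 intron, had 6.7 to 10.1 counts per 100 H13 counts in dICR/dICR myotubes and 5.39 to 7.36 in wild-type myotubes. In myoblasts the ratio was 7.48 to 7.94 in dICR/dICR cells, whose libraries are shallow, and 3.84 to 6.39 in wild-type cells. Within wild type it was 6.23 and 6.39 in the shallow libraries and 4.23 and 3.84 in the deep ones. The genotype groups do not overlap, and the part of the depth set in this gap was not tested. Peg13, a noncoding RNA in a Trappc9 intron, had 12.6 to 22.7 counts per 100 Trappc9 counts in dICR/dICR myotubes, 16.8 to 27.4 in wild-type myotubes, 7.14 to 20.6 in dICR/dICR myoblasts and 11.1 to 19.4 in wild-type myoblasts. In wild-type differentiation within the deep set, Nespas was called higher at 1.95 ± 0.51 (adjusted p = 0.0336) and Peg13 at 1.28 ± 0.37 (adjusted p = 0.0446), while Mcts2 at 0.67 ± 0.28 (adjusted p = 0.118) was not. Mcts2 itself was not called in either genotype comparison over all libraries.

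Genes that lie next to the 8 were read from lists of neighbours. Over all libraries, no neighbour on the lists was called between genotypes in myotubes or in myoblasts. Within the shallow myoblasts, where 21.6% of all genes were called, 6 neighbours were: Cobl (−1.30), Casd1 (−1.40) and Pdk4 (−1.04) lower and Spata5l1 (1.28), Tpx2 (1.18) and Fignl1 (adjusted p = 0.0113) higher. In myotubes with the depth set as a term, which called 2.57% of all genes, Fignl1 was called higher (2.57 ± 0.54, adjusted p = 0.031) and Casd1 lower (−1.44 ± 0.35, adjusted p = 0.0491), and 0 neighbours were called in the deep set alone. The deep contrast of the model with a mean for each group and depth set called 3.63% of all genes. The neighbours called there were Fignl1 (2.53) and Pdk4 (1.39, adjusted p = 0.00946) higher and Casd1 (−1.23) lower. Pdk4 was thus higher there and lower in the shallow myoblasts. Beside Grb10 and Ddc, the actin nucleator Cobl had 33.1 and 79.3 CPM in dICR/dICR myotubes, against 83.4, 86.0, 136, 111 and 162 CPM in wild-type myotubes. Its myoblast levels were 15.2 and 9.25 CPM in dICR/dICR cells, against 17.1, 17.9, 30.1 and 31.4 CPM in wild-type cells. In wild-type differentiation, which called 19.1% of all genes (10.2% as lower), Cobl was higher by 2.27 ± 0.34 (adjusted p = 0.00164) and Fignl1, a gene of recombination repair, lower at −2.34 (adjusted p = 0.0194), out of 3 tested neighbours. Beside Asb4, 2 of 10 neighbours were called lower, Sgce at −1.07 and Pon3 at −0.84, and beside H13 2 of 6 were, Rem1 at −2.96 and Id1 at −1.80. Peg10, the retrotransposon-derived neighbour of Asb4 expressed from the paternal copy, averaged 239 CPM in dICR/dICR myotubes, 127 in wild-type myotubes, 28.7 in dICR/dICR myoblasts and 79.4 in wild-type myoblasts. Peg10 was not called over all libraries. It was called in dICR/dICR differentiation when the depth set was a term (3.35 ± 0.82, adjusted p = 0.0293). Peg3, beside Zim1, averaged 1610 CPM in dICR/dICR myotubes, 1350 in wild-type myotubes, 845 in dICR/dICR myoblasts and 1220 in wild-type myoblasts, and was not called over all libraries. None of the 3 tested Gatm neighbours, 5 Gnas neighbours or 2 Zim1 neighbours was called in wild-type differentiation over all libraries (Nespas was within the deep set, as above), and of 4 Trappc9 neighbours Eif2c2, which encodes Argonaute 2, was called higher at 1.43.

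The pathways in which the 8 genes act were read from lists of their partners. In wild-type differentiation, 5 of 18 genes of the Asb family and Cul5 ligase were called higher and 0 lower, with a median log2 fold change of 0.78 beside 0.02 over all genes, in a comparison that called 8.86% of all genes higher. The 4 with the largest changes were Asb16 (2.17), Asb1 (1.12), Asb5 (1.07) and the cullin Cul5 (0.79). Among 12 receptor and adaptor partners of Grb10, the insulin receptor Insr (0.89) and the growth kinase Mtor (0.65) were called higher, and Grb14 (−2.12), a relative of Grb10, and the receptor substrate Irs1 (−1.42) lower. In the Gs and cAMP pathway of Gnas, 2 of 23 genes were called higher and 4 lower, and the largest changes were those of the adenylyl cyclases Adcy8 (2.97) and Adcy3 (−1.73), the kinase subunit Prkar2b (−2.41) and the G protein Gnal (−1.51). In monoamine synthesis and breakdown, Dbh, which converts dopamine to noradrenaline, was called higher at 4.45 ± 0.95, 1 of 9 genes tested, though its level was at most 5.03 CPM. In the TRAPP complex of Trappc9, 3 of 13 subunits were called, Trappc10 (0.53) and Trappc8 (0.53) higher and Trappc4 (−0.52) lower. In the signal peptide peptidase family and its partners Derl1 (0.80), a component of the removal of misfolded proteins, was called higher, 1 of 7.

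None of the 6 other genes tested for creatine synthesis and use was called over all libraries, although their median was 0.99. Within the deep set the muscle creatine kinase Ckm was higher in wild-type myotubes by 4.93 ± 0.41 (adjusted p = 0.00121), with 51.6, 94.3 and 66.0 CPM in myotubes against 2.65 and 2.08 CPM in myoblasts. Ckm was also lower in shallow dICR/dICR myoblasts than in shallow wild-type myoblasts, at −3.53 ± 0.48 (adjusted p = 0.00476), with 5.70 and 6.12 CPM in dICR/dICR cells against 65.3 and 72.9 CPM in wild-type cells. In that within-set comparison, which called 10.3% of all genes lower, 3 of 5 creatine genes were called lower, with Gamt (−1.46), the second enzyme of creatine synthesis, and the creatine transporter Slc6a8 (−0.63). Of the Grb10 partners 3 of 12 were called lower there, Igf1r (−0.90), Igf2r (−0.80) and Mtor (−0.74). Of the Asb family and Cul5 ligase 3 of 15 were, Asb2 (−1.52), Rnf7 (−0.74) and Asb7 (−0.66), and in the Gs and cAMP pathway Adcy2 (−3.82) and Prkaca (−0.94) were called lower. The TRAPP complex had 0 of 13. Between genotypes in myotubes over all libraries, 1 gene of the pathway lists was called, the protein kinase A regulatory subunit Prkar2b, at 2.22 ± 0.39 (adjusted p = 0.035). Prkar2b had 263 and 82.5 CPM in dICR/dICR myotubes, against 57.8, 45.8, 25.1, 33.5 and 22.4 CPM in wild-type myotubes. It was also called with the depth set as a term (2.09 ± 0.39, adjusted p = 0.018) and in the deep contrast of the model with a mean for each group and depth set (2.01 ± 0.42, adjusted p = 0.0276), but not in the deep set alone (1.99 ± 0.50, adjusted p = 0.124).

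The gene whose pattern over the 13 libraries was most like each of the 8 was found by Pearson's r of log2 CPM, as a description in which the points share library depth and set. Gatm was closest to Srpk3 (r = 0.991), a muscle kinase, and to Nfil3 (0.987). Ddc was closest to Pcx (0.982) and Stac3 (0.982), Zim1 to Shisa2 (0.980) and Scn3b (0.964), Grb10 to Cldn2 (0.923) and Smpd1 (0.921), and Asb4 to Tmtc1 (0.945) and Dhrs1 (0.944). Gnas was closest to Plbd2 (0.945) and Pld3 (0.945), Trappc9 to AU040320 (0.947) and Ttll1 (0.929), and H13 to Iqsec3 (0.939) and Alkbh6 (0.902). Among the 8, the likest pair was Gatm and Ddc (r = 0.93), then Gatm and Zim1 (0.87) and Gnas and Trappc9 (0.85). Grb10 and Ddc, which adjoin each other on chromosome 11, had r = 0.79.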

How the data were processed

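The values are raw counts per gene, as the authors deposited them for 13 libraries, without normalization. Reads were aligned with TopHat2 to mm9 and counted with HTSeq, per the submitters' processing notes. Not given in the sources used here are versions, annotation, counting mode and whether strand was used, so counts of genes that overlap on either strand are uncertain. Total counts were 5.31 to 56.44 M per library. No 2 replicates agreed within sampling noise in a chi-square test of their counts, but their closeness differed widely. Chi-square per degree of freedom was 4.7 between wild-type myoblasts 3 and 4 and 21.9 between wild-type myotubes 4 and 5. It was 34.3 between the dICR/dICR myoblasts, 39.8 between wild-type myoblasts 1 and 2 and 249.2 between the dICR/dICR myotubes. The statistic grows with depth, so it does not compare pairs of unlike depth.

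In R 4.3.3, edgeR 4.0.16 kept 16537 of 23366 genes (filterByExpr by group, minimum count 10, minimum total 15), scaled libraries by TMM and fitted 1 quasi-likelihood model with 4 group means to all 13 libraries. Tests of the 5 contrasts were two-sided. A gene was called where its p, adjusted over all tested genes by Benjamini-Hochberg, was under 0.05. The standard error is the absolute log2 fold change divided by the square root of the F statistic. CPM are counts divided by the TMM-scaled library total and brought to a common total, and log2 CPM used a prior count of 2. The deep and shallow sets were divided at 20 M counts after the totals were seen. Contrasts were refitted with the set as a term and on 1 set alone. A model with 6 means (group by set) was added after seeing the data. DESeq2 1.42.0, limma 3.58.1 voom, other scalings, no filter, a replicate block and leaving out each library were the alternatives. Fits were tested on simulated counts.

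The members and gene lists were chosen with earlier results of these data known. All 8 members are named in each contrast. Up to 4 genes per list and contrast are named by size of change among those called. A further called gene of the lists is not reported here. The 2 genes most like each member are given.

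The main fit did not pair samples by replicate number. Correlations of same-numbered deviations from the group mean ran from −0.41 to 0.52. Between wild-type myoblasts and myotubes they were 0.43, 0.52 and 0.52 for numbers 1, 2 and 4, whose libraries share a depth set. For number 3, whose libraries differ in depth set, the value was −0.41. Pairing and depth set cannot be told apart there, so the correlations do not show whether the numbers pair the samples. Exon lengths (GENCODE M21) and start windows (RefSeq) were matched by symbol. Of the 23366 names, 23207 matched a symbol or synonym.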

Additional observations from a re-analysis of the deposited data

Results flagged for a closer look

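Of 16 sets of values (8 genes in the 2 wild-type groups, the others being too small), 1 held a library far from the others: H13 in wild-type myoblast 2 had 184.1 CPM, against 174 to 175 CPM in the other 3 wild-type myoblast libraries. Chance alone flags about 1 in 20 such sets, and 184.1 CPM remains above both dICR/dICR myoblast values.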

How the results depend on the processing

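Depth limits Asb4 most, with 7 to 134 counts per library. The depth sets limit every dICR/dICR comparison, since each dICR/dICR group lies in 1 set. Under RLE scaling, no filter on low counts and DESeq2, the number of the 8 genes called stayed at 0 in both genotype comparisons, in dICR/dICR differentiation and in the difference of differentiation changes, and at 1 in wild-type differentiation. In myoblasts between genotypes it was 1 with the depth set as a term, 5 in the shallow set alone and 3 there under the 6-mean model. In wild-type differentiation it was 0 with library size alone, 2 under limma voom, 3 with the depth set as a term, 3 in the deep set alone, 4 there under the 6-mean model, and 0 to 2 with 1 library left out. In dICR/dICR differentiation it was 4 with the depth set as a term. The replicate block gave 2 in wild-type differentiation, Gatm at 2.42 (adjusted p = 0.0123) and Ddc at 1.32 (adjusted p = 0.044), and 0 in the other 4 contrasts. The block called 0, 3, 3063, 100 and 0 genes in the 5 contrasts, in the order myoblast genotype, myotube genotype, wild-type differentiation, dICR/dICR differentiation and their difference. With the numbers of the dICR/dICR myoblasts crossed, whose correlation with the dICR/dICR myotubes was −0.39, the counts were 0, 11, 3214, 575 and 0, and 2 of the 8 were called in wild-type differentiation.

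These log2 fold changes turned direction, none of them called, and the cause was not tested. In the myoblast genotype comparison limma voom gave 0.58 for Grb10 and 0.16 for Ddc, and the replicate block 1.86 for Grb10, 0.23 for Ddc, 0.04 for Gatm and 0.34 for Zim1. In the myotube genotype comparison the depth term gave 0.27 for Ddc, and the replicate block 0.43 for Ddc, 0.50 for Asb4 and 0.01 for Gnas. In wild-type differentiation library size alone gave −0.13 for Grb10 and −0.04 for Trappc9, and it moved the median of all genes to −0.26. For the difference of differentiation changes limma voom gave −0.25 for Ddc, and the depth term 0.48 for Gatm and 0.16 for Zim1. With 1 library left out, the values that crossed 0 ranged in the myoblast genotype comparison between −1.03 and 0.08 for Grb10 and between −1.44 and 0.20 for Zim1. In the myotube genotype comparison they ranged between −0.29 and 0.88 for Grb10 and between −0.41 and 0.10 for H13. In wild-type differentiation they were −0.22 to 0.80 for Grb10 (−0.17 without wild-type myoblast 1 or 2) and −0.84 to 0.19 for Asb4, and Gatm stayed above 0 at 1.71 to 2.45. In dICR/dICR differentiation Zim1 ranged between −0.63 and 1.48 (−0.16 without dICR/dICR myoblast 2). For the difference of differentiation changes Gatm ranged between −0.79 and 0.13 and Zim1 between −1.65 and 0.46.

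The number of all genes called differed by over 1.5 times between tools: for edgeR, DESeq2 and limma voom it was 5, 464 and 9 in the myoblast genotype comparison, 92, 1120 and 440 in the myotube one and 24, 1199 and 98 in dICR/dICR differentiation.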
